A study of Mus musculus with 12 samples.

Results

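Chemokines and cytokines are how a B cell that has met antigen speaks to the cells around it. The 10 genes described here are those encoding the chemokines CCL3, CCL4, CCL22 and CXCL10, the TNF family ligands TNF, lymphotoxin α (Lta) and lymphotoxin β (Ltb), the cytokines IL-6 and IL-10, and TGF-β1. They were taken as a list of names, chosen with earlier results of these data known, and each matched 1 of the 37991 Ensembl genes in the count table. RNA came from splenic resting B cells of mice aged 8 weeks. The control mice carried the CD23-Cre transgene alone (Cre-only). The Runx1 c-k/o mice came from crossing that transgene with the Runx1 fl/fl line, whose floxed allele loses exon 4. In the study, they lacked RUNX1 protein in mature resting B cells. In both genotypes, Cre begins to act at the transitional B cell stage, so earlier B cells are spared. The cells were isolated by negative selection that depletes non-B cells and cells with surface CD43, and were taken at rest (0 h) or after 3 h with anti-IgM, which cross-links the BCR, plus IL-4. Each of the 4 groups had 3 samples, which were biological replicates.

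As background, CCL3 and CCL4 draw T cells and monocytes, CCL22 draws CCR4-bearing T cells, and CXCL10 is an interferon-induced ligand of CXCR3. TNF and the lymphotoxins shape lymphoid tissue: LTα is secreted as a homotrimer or held at the cell surface by LTβ, and the surface form, which resting B cells carry, signals to stromal cells through LTBR to maintain follicles. IL-6 promotes germinal centre and T helper responses, whereas IL-10 and TGF-β1 restrain other immune cells, and IL-10-producing B cells are known as regulatory B cells.

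The promoters of 4 members are shown because 3 of these genes, Tnf, Lta and Ltb, lie side by side yet differed in the direction of their change, and because Cxcl10 was the tested member whose response differed most between genotypes by its estimate. In mm9 coordinates, Ltb lies at chr17:35331384-35333265 on the plus strand, Tnf at chr17:35336326-35338952 and Lta at chr17:35340110-35342296, both on the minus strand, with 3060 bp between Ltb and Tnf and 1157 bp between Tnf and Lta. Each line gives the 250 bases before the start site, 5′ to 3′ on the gene's strand, from RefSeq on build GRCm38.p6 (Tnf chr17:35202008-35202257, minus; Lta chr17:35205352-35205601, minus; Ltb chr17:35194257-35194506, plus; Cxcl10 chr5:92348890-92349139, minus). Capitals mark matches on either strand to 4 motifs: the NF-kB consensus, the RUNX core TGNGGT, the AP-1 site TGANTCA, and the interferon regulatory factor (IRF) repeat, GAAA and GAAA with any 2 bases between.
Tnf: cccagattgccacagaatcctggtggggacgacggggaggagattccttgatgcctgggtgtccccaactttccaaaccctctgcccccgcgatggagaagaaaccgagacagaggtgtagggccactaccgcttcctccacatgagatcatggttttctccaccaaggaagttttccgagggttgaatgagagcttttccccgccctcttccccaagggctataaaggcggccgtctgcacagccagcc
Lta: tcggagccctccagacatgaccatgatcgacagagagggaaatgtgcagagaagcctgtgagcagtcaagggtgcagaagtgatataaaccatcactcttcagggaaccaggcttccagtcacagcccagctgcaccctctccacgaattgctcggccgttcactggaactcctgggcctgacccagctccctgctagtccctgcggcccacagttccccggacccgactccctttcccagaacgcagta
Ltb: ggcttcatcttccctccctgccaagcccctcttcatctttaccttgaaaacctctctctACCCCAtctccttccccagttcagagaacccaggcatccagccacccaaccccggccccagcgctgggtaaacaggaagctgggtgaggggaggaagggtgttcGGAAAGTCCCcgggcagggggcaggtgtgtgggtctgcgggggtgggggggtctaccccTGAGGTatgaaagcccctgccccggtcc
Cxcl10: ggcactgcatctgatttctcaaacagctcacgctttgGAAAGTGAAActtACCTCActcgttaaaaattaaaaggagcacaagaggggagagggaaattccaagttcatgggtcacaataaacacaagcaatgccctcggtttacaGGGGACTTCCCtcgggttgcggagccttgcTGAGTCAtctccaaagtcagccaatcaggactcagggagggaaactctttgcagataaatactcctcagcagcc
The Cxcl10 window held the IRF repeat, a RUNX core, an AP-1 site and 2 NF-kB matches that overlapped by all but 1 base. The Ltb window held 1 NF-kB match and 2 RUNX cores. None of the 4 motifs was found in the Tnf and Lta windows. Matches to the RUNX core are common: over 32851 RefSeq promoters, the same window held it in 40.1%. The others were less common, the AP-1 site in 6.75%, the NF-kB consensus in 5.0% and the IRF repeat in 2.98%. Of the 8 members with a promoter in that table, 4 held an NF-kB match (Cxcl10, Ltb, Il6, Tgfb1), 4 a RUNX core (Ccl3, Ccl22, Cxcl10, Ltb), 2 an AP-1 site (Cxcl10, Il6) and 1 the IRF repeat (Cxcl10). Ccl4 and Il10 were without an entry. Binding was not measured in these files.

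Between 14442251 and 23641552 counts per sample fell on genes, and 3 counts, the floor below which a level is not told from 0, corresponded to 0.127 to 0.208 CPM, where CPM is counts scaled to a common library size. Levels below are normalized CPM, for which the library size was TMM-scaled. Runx1 counts were not lower in the knockout (84.0 ± 2.48 CPM in resting Cre-only and 99.9 ± 3.75 in resting c-k/o cells, SD, n = 3), but gene counts include every exon outside the deleted one and so do not check the deletion. Replicates within a group all differed beyond sampling noise, by a chi-square per degree of freedom of 3.31 to 5.95 among Cre-only pairs and up to 84.7 among c-k/o pairs. Resting c-k/o replicate 2 and 3-h c-k/o replicate 1 stood apart from the other samples of their groups. In resting c-k/o replicate 2, 9 of the 10 members were at the highest level of the group, the exception being Lta.

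Markers of cells other than B cells were present and moved with activation. The summed level of 12 macrophage and monocyte markers was 487 to 621 CPM in resting and 35.3 to 46.7 CPM in 3-h Cre-only cells, and 428 to 939 against 43.2 to 107 CPM in c-k/o cells, with 11 of 12 lower after activation in each genotype. Between genotypes edgeR and DESeq2 each called 0 of the 12 at either time, with 0 at rest and 2 at 3 h at an unadjusted p under 0.05. Of the 13538 genes tested, 1496 at rest and 2194 at 3 h reached that unadjusted threshold. The highest sums of the c-k/o groups were those of replicate 2 at rest, 939 CPM, and of replicate 2 at 3 h, 107 CPM. Markers of 10 T-cell genes summed to 32.5 to 44.8 CPM at rest and 66.7 to 86.6 CPM at 3 h, against 8110 to 8850 and 2310 to 2870 CPM for 8 B-cell markers. Of the 5 T-cell markers tested, only Lck was called higher and Cd4 was called lower on activation in each genotype. Their median log2 change was -0.58 in Cre-only and -0.20 in c-k/o cells, so the higher sum did not hold across the list. Cd3e, which defines T cells, was at most 0.41 CPM in any sample. NK cell markers summed to at most 15.3 CPM, dendritic cell markers to at most 39.2 CPM and neutrophil markers to at most 12 CPM, with the neutrophil genes Ly6g and Elane at or under the floor. Plasma cell markers summed to 1700 to 1870 CPM at rest and 2040 to 2410 CPM at 3 h, most of it Irf4. Of the 6 tested, edgeR called 1 between genotypes at rest, Sdc1, at 17.4 to 18.8 CPM in Cre-only and 5.97 to 8.98 CPM in c-k/o cells. At 3 h it called 0. Macrophages are known producers of most of the members, and the part of other cells in the results below was not tested. In bulk RNA, fewer cells of a type and less RNA per cell cannot be told apart.

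**Figure D1:**
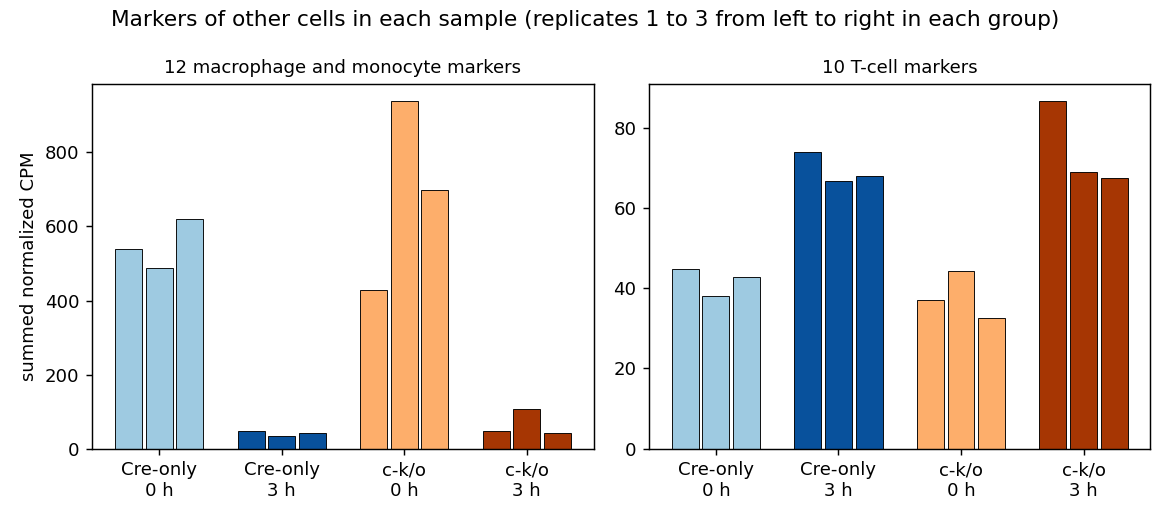
Summed normalized CPM of 12 macrophage and monocyte markers (left) and 10 T-cell markers (right), 1 bar per sample, replicates 1 to 3 from left to right in each group. The macrophage sum was 428 to 939 CPM in every resting sample and 35.3 to 107 CPM in every 3-h sample, and was highest in c-k/o replicate 2 at both times. Of 5 tested T-cell markers, only Lck was called higher and Cd4 was called lower at 3 h in each genotype.

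Compared per length, as CPM per kb of exon, the members of resting Cre-only cells spanned from Ltb at 165 to Il6 at 0.0983 CPM per kb. Ltb was followed by Tgfb1 (75.1), Lta (15.1), Ccl4 (9.56), Ccl3 (7.60), Il10 (3.31), Tnf (2.32), Cxcl10 (0.984) and Ccl22 (0.309 CPM per kb), and among neighbours in this order only the ranges of Il10 and Tnf overlapped. Both lymphotoxins were thus among the highest members at rest. After 3 h the order in Cre-only cells was Tgfb1 (100), Ccl4 (45.7), Ccl3 (11.9), Ltb (7.13), Tnf (6.61), Ccl22 (4.08), Il10 (2.65), Lta (2.20), Cxcl10 (0.319) and Il6 (0.066 CPM per kb), and the ranges of Ltb and Tnf, and of Il10 and Lta, overlapped. In c-k/o cells the resting order was Ltb (206), Tgfb1 (80.4), Lta (15.8), Ccl4 (7.49), Ccl3 (5.71), Il10 (4.45), Tnf (3.55), Cxcl10 (0.891), Ccl22 (0.856) and Il6 (0.0978 CPM per kb), the same sequence as in Cre-only cells, with overlap from Ccl4 down to Tnf and between Cxcl10 and Ccl22. At 3 h the c-k/o order was Tgfb1 (151), Ccl4 (44.8), Ltb (11.6), Ccl3 (11.5), Tnf (11), Ccl22 (8.06), Il10 (8.00), Lta (3.49), Cxcl10 (0.935) and Il6 (0.534 CPM per kb). There, neighbours overlapped from Ltb to Tnf, between Ccl22 and Il10 and between Cxcl10 and Il6.

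**Figure D2:**
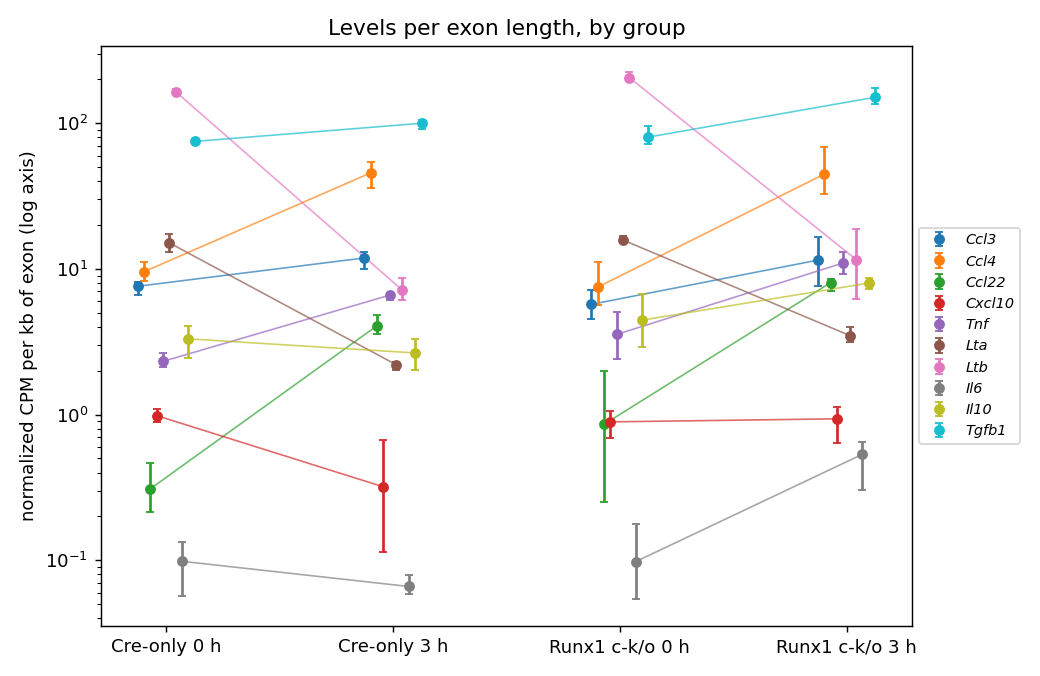
Level of each member per exon length (normalized CPM per kb, log axis) in the 4 groups; points are means of 3 samples, bars run from the lowest to the highest sample, and lines join rest and 3 h of one genotype. Ltb went from the top, 165 and 206 CPM per kb, to 7.13 and 11.6, while Tgfb1 and Ccl4 led at 3 h.

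The first question was how these genes changed over 3 h with anti-IgM plus IL-4 in control cells, called activation here. No group was cultured for 3 h without anti-IgM or with IL-4 alone. The parts of anti-IgM, IL-4 and culture therefore cannot be told apart. Of the 9 members with enough counts to be tested, 8 passed the threshold on activation of Cre-only cells: Ccl3, Ccl4, Ccl22, Tnf and Tgfb1 rose, and Lta, Ltb and Cxcl10 fell. Activation moved most of the transcriptome, 75.0% of 13538 tested genes (38.6% higher, 36.4% lower), so the number called is near the background. The median absolute log2 change was 1.70 over the members and 0.90 over all tested genes. In c-k/o cells 8 members passed as well, with Il10 in place of Cxcl10, where the background was 74.3% (37.7% higher, 36.6% lower). The samples at rest and 3 h did not overlap for 8 of 9 members in each genotype, against 84.4% of all tested genes in Cre-only and 72.8% in c-k/o cells. In c-k/o cells 9 members passed without resting replicate 2, with Il6, which the filter on low counts then kept, as the added one, and 8 without 3-h replicate 1.

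**Figure D3:**
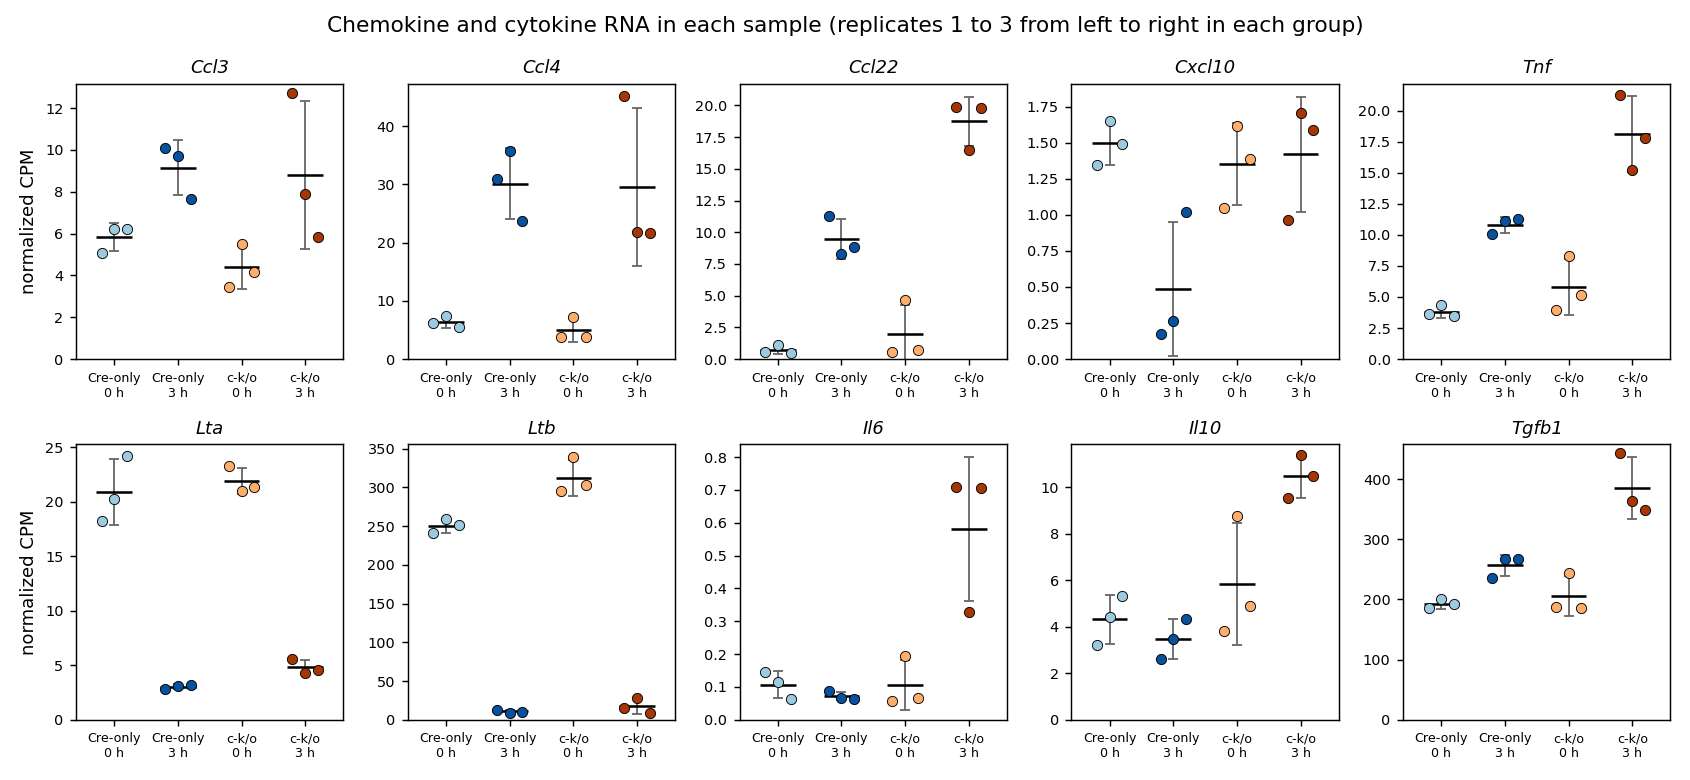
Normalized CPM of the 10 members in each of the 12 samples (points), with the mean (line) and SD (bars) of each group. Lta and Ltb drop in every 3-h sample, Ccl4, Ccl22 and Tnf rise in both genotypes, and the 3-h c-k/o samples of Il10 (9.53 to 11.4 CPM) and Il6 lie above all the others.

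Among the chemokines, Ccl4 rose in both genotypes. Its levels were 6.12, 7.35 and 5.45 CPM in resting and 31.0, 35.7 and 23.7 CPM in 3-h Cre-only cells, a log2 fold change of 2.25 ± 0.322 (SE, adjusted p = 4.04e-05, edgeR's quasi-likelihood test, as for all adjusted p-values below unless another test is named). The c-k/o cells went from 3.75, 7.30 and 3.78 CPM to 45.2, 21.8 and 21.7 CPM, a log2 fold change of 2.58 ± 0.335 (adjusted p = 1.83e-05). Every activated sample lay above every resting sample, and 3-h c-k/o replicate 1 was the highest. With 1 factor of unwanted variation the changes were smaller but still called, at 0.84 (edgeR) and 0.70 (DESeq2) in Cre-only and 1.07 and 0.98 in c-k/o cells. Its neighbour Ccl3, which lies 13228 bp away on chromosome 11, was at 5.06, 6.21 and 6.20 CPM at rest and 10.1, 9.73 and 7.64 CPM at 3 h in Cre-only cells. That change of 0.66 ± 0.256 on the log2 scale passed narrowly (adjusted p = 0.0339). The call was lost with the resting and 3-h replicates paired by number (adjusted p = 0.0598), with DESeq2 (adjusted p = 0.0746) and without any of the Cre-only samples except 3-h replicate 3, the adjusted p without one sample ranging from 0.0293 to 0.111. With 1 factor of unwanted variation it turned to -0.40. Ccl3 in c-k/o cells went from 3.46, 5.49 and 4.18 to 12.7, 7.87 and 5.83 CPM (log2 fold change 1.01 ± 0.267, adjusted p = 0.00448), which turned to -0.14 with that factor. So the rise of Ccl3 was smaller and less secure than that of Ccl4.

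Ccl22 had the steepest rise of the members. It was near the floor in resting Cre-only cells, at 0.578, 1.08 and 0.496 CPM (12, 19 and 8 counts), and reached 11.3, 8.30 and 8.85 CPM at 3 h, a 13.2-fold increase (log2 3.72 ± 0.580, adjusted p = 8.37e-05). Resting c-k/o cells held 0.586, 4.65 and 0.730 CPM and 3-h c-k/o cells 19.9, 16.5 and 19.8 CPM (log2 fold change 3.25 ± 0.503, adjusted p = 8.23e-05). The resting value of replicate 2 set the size of that change, which was 4.83 without it. With 1 factor of unwanted variation in DESeq2 the changes were 1.69 in Cre-only (adjusted p = 0.191) and 1.65 in c-k/o cells (adjusted p = 0.214), neither called. CCR4, the receptor for CCL22, was itself nearly silent in these cells: Ccr4 had means of 0.0764 CPM in resting and 0.216 CPM in 3-h Cre-only cells.

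Cxcl10 moved the other way. It was at 1.35, 1.65 and 1.49 CPM in resting Cre-only cells (28, 29 and 24 counts) and at 0.173, 0.261 and 1.02 CPM at 3 h (4, 4 and 16 counts). Replicate 3 kept a level several times that of the others, and the resting and activated samples still did not overlap. The log2 fold change was -1.70 ± 0.479 (adjusted p = 0.00639), -2.78 without 3-h replicate 3, and it missed the threshold with 1 factor of unwanted variation (adjusted p = 0.144). The c-k/o level was 1.05, 1.62 and 1.39 CPM at rest and 0.966, 1.71 and 1.59 CPM at 3 h, overlapping ranges with a log2 fold change of 0.08 ± 0.420 (adjusted p = 0.879). Art3 overlaps Cxcl10 on the opposite strand and had at most 5 counts in any sample.

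The TNF family members were divided. Tnf rose from 3.61, 4.33 and 3.47 to 10.1, 11.1 and 11.3 CPM in Cre-only cells (log2 fold change 1.50 ± 0.234, adjusted p = 8.11e-05). It rose from 3.92, 8.34 and 5.18 to 21.3, 15.2 and 17.8 CPM in c-k/o cells (log2 fold change 1.64 ± 0.225, adjusted p = 2.87e-05). Its samples at rest and 3 h did not overlap in either genotype. With 1 factor of unwanted variation the Cre-only change was 0.75 in edgeR and 0.62 in DESeq2, the latter not called (adjusted p = 0.0941). Lta, the gene next to it, fell from 18.2, 20.3 and 24.2 to 2.81, 3.14 and 3.19 CPM in Cre-only cells, which is 6.88-fold (log2 fold change -2.78 ± 0.144, adjusted p = 1.76e-08). The c-k/o samples of Lta went from 23.3, 21.0 and 21.4 to 5.54, 4.33 and 4.59 CPM (log2 fold change -2.18 ± 0.138, adjusted p = 6.77e-08). The replicates of each group lay close together.

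Ltb, whose product anchors lymphotoxin at the surface, fell furthest. Resting Cre-only cells held 241, 259 and 252 CPM and 3-h cells 13.2, 9.28 and 10 CPM, a 23.0-fold decrease (log2 fold change -4.52 ± 0.319, adjusted p = 1.08e-07). Resting c-k/o cells held 295, 339 and 303 CPM and 3-h c-k/o cells 15.1, 28.5 and 9.36 CPM (log2 fold change -4.15 ± 0.311, adjusted p = 2.08e-07). The fall was seen in every sample and under every alternative, including both fits with a factor of unwanted variation. Of the receptors of this family, Tnfrsf1b, encoding TNFR2, rose (log2 fold change 1.51 ± 0.121, adjusted p = 2.87e-07, in Cre-only cells). Tnfrsf1a, encoding TNFR1, fell there from a mean of 5.21 to 0.316 CPM (log2 fold change -3.90 ± 0.427, adjusted p = 4.06e-06). Ltbr, mainly a gene of stromal and myeloid cells, was low throughout and fell from a mean of 2.13 to 0.164 CPM (adjusted p = 0.000211).

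Il6 was at the limit of detection. It had 3, 2 and 1 counts in resting Cre-only, 2, 1 and 1 in 3-h Cre-only, 1, 3 and 1 in resting c-k/o and 11, 5 and 12 in 3-h c-k/o cells. In all but the last group it was at or under the floor of 3 counts, and it was left out of the test by the filter on low counts. Il10 was low but measurable, at 3.23, 4.44 and 5.33 CPM in resting and 2.63, 3.46 and 4.33 CPM in 3-h Cre-only cells. These overlapped, with a log2 fold change of -0.32 ± 0.305 (adjusted p = 0.348). The c-k/o samples of Il10 went from 3.81, 8.79 and 4.91 to 9.53, 11.4 and 10.5 CPM, with no overlap and a log2 fold change of 0.85 ± 0.281 (adjusted p = 0.0161). That call was lost without resting replicate 1 (adjusted p = 0.0685) or 3 (adjusted p = 0.061), where replicate 2 weighed more, and with 1 factor of unwanted variation (adjusted p = 0.408), while without resting replicate 2 the change was 1.28.

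Tgfb1 was high in every sample. It rose from 185, 200 and 192 to 236, 267 and 267 CPM in Cre-only cells (log2 fold change 0.42 ± 0.126, adjusted p = 0.00966) and from 188, 244 and 185 to 444, 363 and 348 CPM in c-k/o cells (log2 fold change 0.90 ± 0.127, adjusted p = 3.57e-05). The activated samples lay above the resting ones in both genotypes. The smaller of these changes missed the threshold when 10 counts were asked of every sample (0.26, adjusted p = 0.0591) and turned to -0.09 with 1 factor of unwanted variation. Because TGF-β1 is secreted in latent form, genes for its release bear on it: Itgav, the integrin αv chain, rose by a log2 fold change of 3.02 (adjusted p = 1.28e-07) in Cre-only cells. Lrrc32, which tethers latent TGF-β at the cell surface, rose by 5.27 (adjusted p = 6.07e-06), and Thbs1, encoding thrombospondin 1, an activator of the latent form, fell by 3.20 (adjusted p = 6.19e-06), both as log2 fold changes.

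**Figure D4:**
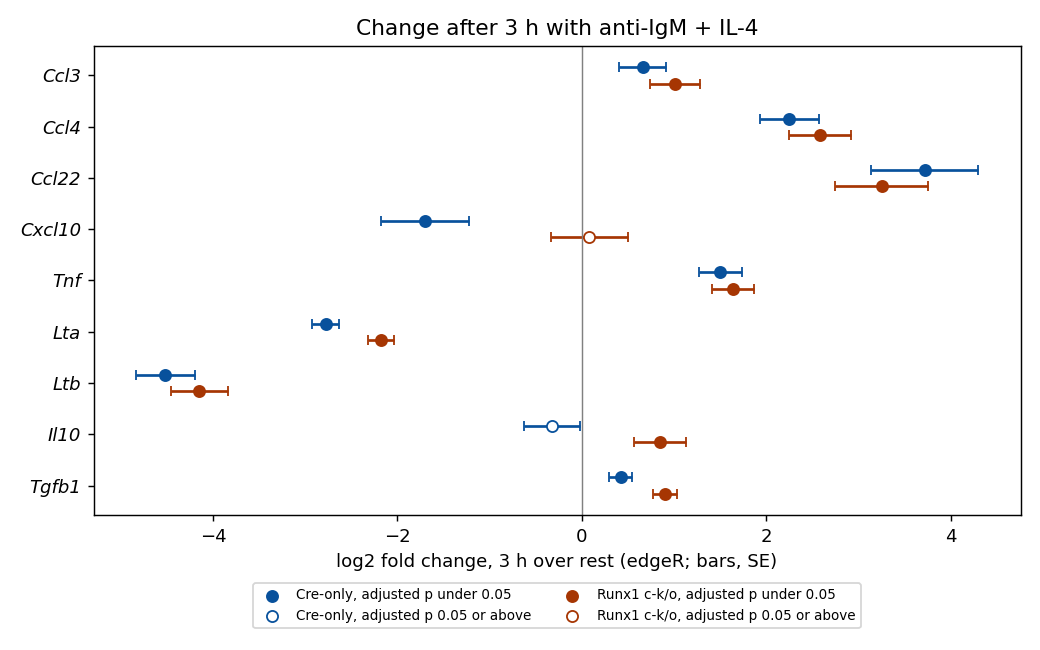
Log2 fold change of 3-h over resting cells for the 9 tested members, with SE bars, in Cre-only (blue) and Runx1 c-k/o cells (orange). Filled points passed an adjusted p of 0.05, which 8 members did in each genotype; Ltb lies furthest to the left at -4.52 and -4.15, and Cxcl10 and Il10 are the members called in 1 genotype each.

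Of 15 receptor genes of the members tested, 7 rose and 4 fell in Cre-only cells, and 6 rose and 5 fell in c-k/o cells, shares near those of all tested genes (75.0% and 74.3% called). Tgfbr1 (1.22, adjusted p = 1.09e-06) and Il10rb (0.87, adjusted p = 7.71e-07), subunits of the TGF-β and IL-10 receptors, rose in Cre-only cells (log2 fold changes). Il10ra, the ligand-binding chain for IL-10, fell from 219 to 11 CPM (log2 fold change -4.31 ± 0.299, adjusted p = 9.75e-08), so the 2 chains of the IL-10 receptor moved in opposite directions. Of 11 tested genes for processing and release of the members, 4 rose and 3 fell in Cre-only cells, Rhbdf2, a partner of the TNF-releasing protease, falling by 3.00 on the log2 scale (adjusted p = 1.04e-08). In c-k/o cells 3 rose and 5 fell.

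Of 27 other chemokine and cytokine genes with enough counts, 8 rose and 14 fell in Cre-only cells, with a median log2 fold change of -1.51. Vegfa, an angiogenic factor, rose from a mean of 15.7 to 85.7 CPM (adjusted p = 2.29e-06) and Csf1, the macrophage growth factor, from 8.72 to 40.7 CPM (adjusted p = 1.6e-07). Il16, a T-cell attractant, fell from 96.7 to 14.7 CPM (adjusted p = 1.59e-08), and Flt3l, a dendritic cell growth factor, from 14.4 to 3.78 CPM (adjusted p = 5.72e-07). In c-k/o cells 10 rose and 13 fell. Among 25 genes linked to IL-10-producing B cells, 12 rose and 11 fell in each genotype. Stat3, a mediator of IL-10 signalling, rose (log2 fold change 2.28, adjusted p = 2.2e-08, in Cre-only cells), as did Ahr (3.31, adjusted p = 6.56e-07), whereas Cd1d1 (-4.87, adjusted p = 3.03e-08) and Maf (-5.48, adjusted p = 4.1e-08) fell. Over all tested genes, 38.6% rose and 36.4% fell in Cre-only cells.

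The second question was whether loss of Runx1 altered these genes at rest. None of the 9 tested members passed edgeR's test, where 1.49% of all tested genes did. At an unadjusted p under 0.05 there was 1, Tnf, against 1496 of 13538 tested genes. The DESeq2 Wald test called 0 members. Only Ltb had no overlap between the genotypes (241 to 259 against 295 to 339 CPM, log2 fold change 0.32 ± 0.268, adjusted p = 0.685), and 23.7% of all tested genes had none. For Tnf the log2 fold change was 0.61 ± 0.244 (adjusted p = 0.368), and 0.25 without resting c-k/o replicate 2. For Ccl22 it was 1.45 ± 0.679 (adjusted p = 0.464) and -0.13 without that sample, so the difference rested on 1 library. Il10 differed by 0.43 ± 0.294 (adjusted p = 0.636) and by 0.01 without that sample. In that library the macrophage markers were also highest, at 939 CPM, and the part of macrophages in these differences was not tested. The approximate 95% interval of the log2 difference was -0.22 to 0.35 for Lta and -0.19 to 0.39 for Tgfb1, and the wider interval of Ccl4, -1.17 to 0.46, leaves room for a difference of more than 2-fold. Ccl4 was called lower in c-k/o cells with 1 factor of unwanted variation (log2 fold change -0.69, adjusted p = 0.0477).

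The third question was the same comparison after 3 h of activation. Of the 9 tested members, 3 were called, Il10, Lta and Tgfb1, all higher in c-k/o cells, where 2.77% of all tested genes were called and 1.47% were called higher. The median log2 difference was 0.69 over the members and 0.01 over all tested genes. Because the members were chosen with earlier results of these data known, setting them beside all genes is descriptive and does not test for an excess. Without c-k/o replicate 1 there were 2 called, without c-k/o replicate 3 there were 4, and without Cre-only replicate 1 or 2 edgeR called 0. Without c-k/o replicate 2 Il10 was called. Il6 was called there too, but it passed the filter only through the 3-h c-k/o samples, where it was high. Of the 9, 5 had no overlap between genotypes (Ccl22, Tnf, Lta, Il10, Tgfb1), all with the c-k/o samples above, against 21.8% of all tested genes without overlap, 9.5% with the c-k/o samples above.

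Il10 showed the largest called difference. It was at 2.63, 3.46 and 4.33 CPM in Cre-only and 9.53, 11.4 and 10.5 CPM in c-k/o cells (61, 53 and 68 against 148, 173 and 179 counts). The c-k/o level was 3.04-fold higher (log2 1.61 ± 0.293, adjusted p = 0.0114) and was called under all 8 alternatives other than leaving out a sample. Without Cre-only replicate 1 (adjusted p = 0.0768) or 2 (adjusted p = 0.0557) it was not called, with a log2 difference of 1.42 and 1.61. The macrophage marker sums at 3 h were 46.7, 35.3 and 42.6 CPM in Cre-only and 47.5, 107 and 43.2 CPM in c-k/o cells. B-1 and marginal zone B cells are known as sources of IL-10, and 10 of their markers summed to 2680, 2930 and 2690 CPM in 3-h Cre-only and 2830, 2950 and 3590 CPM in 3-h c-k/o cells, with 1 of 10, Spn, called higher by edgeR and 2 called by DESeq2. Spn encodes CD43, which B-1 cells carry and by which the isolation removed cells. At rest the same sums were 1260, 1420 and 1580 against 1750, 1790 and 1910 CPM, with no overlap and with 0 of 10 genes called by edgeR, 5 at an unadjusted p under 0.05 and 2 called by DESeq2. Over all tested genes, 1496 of 13538 reached that unadjusted threshold at rest. Most of each sum was Cr2, at 818 to 1080 against 1230 to 1410 CPM at rest (log2 difference 0.48 ± 0.137, adjusted p = 0.147). At 3 h Cr2 was at 1910 to 2180 against 2270 to 2960 CPM. Cr2 encodes CD21, which follicular B cells also carry. The part of macrophages and of B-1 and marginal zone B cells in the Il10 difference was not tested.

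Tgfb1 was at 236, 267 and 267 CPM in Cre-only and 444, 363 and 348 CPM in c-k/o cells (log2 difference 0.59 ± 0.126, adjusted p = 0.0269). Lta was at 2.81, 3.14 and 3.19 against 5.54, 4.33 and 4.59 CPM (log2 difference 0.67 ± 0.155, adjusted p = 0.0405). Both were small differences without overlap, and both calls depended on the fit. DESeq2's Wald test called both (adjusted p = 0.0119 for Lta and 0.000336 for Tgfb1), as did edgeR with 1 factor of unwanted variation (0.035 and 0.000462). For Lta the adjusted p was 0.177 without Cre-only replicate 1, 0.112 without 2 and 0.096 without 3, and 0.118 and 0.054 without c-k/o replicates 1 and 2, with log2 differences of 0.58 to 0.74 in all. For Tgfb1 it was 0.143, 0.0916 and 0.0834 without Cre-only replicates 1, 2 and 3 and 0.052 without c-k/o replicate 2, with differences of 0.49 to 0.65. Fitting only the 3-h groups gave an adjusted p of 0.152 for Lta and 0.0657 for Tgfb1.

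Tnf and Ccl22 were higher in every c-k/o sample but did not pass. Tnf was at 10.1, 11.1 and 11.3 against 21.3, 15.2 and 17.8 CPM, a log2 difference of 0.74 ± 0.213 (adjusted p = 0.0963; 0.0221 by DESeq2's Wald test). Ccl22 was at 11.3, 8.30 and 8.85 against 19.9, 16.5 and 19.8 CPM, a log2 difference of 0.97 ± 0.424 (adjusted p = 0.284; 0.0324 in a fit of the 3-h groups alone). Its receptor gene Ccr4 was higher in c-k/o cells too (means of 0.216 and 0.875 CPM, log2 difference 1.96 ± 0.406, adjusted p = 0.023), though at levels near the floor. Of the 15 receptor genes edgeR called 1 at 3 h, with 6 at an unadjusted p under 0.05, and DESeq2 called 2. Over all tested genes, 2194 of 13538 reached that unadjusted threshold. DESeq2 called 691 of 22850 genes with a p-value, a total that includes low-count genes outside edgeR's 13538 and so is no like background.

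Cxcl10, at 0.173, 0.261 and 1.02 CPM against 0.966, 1.71 and 1.59 CPM, had a log2 difference of 1.63 ± 0.488 that missed the threshold (adjusted p = 0.114). It was called by DESeq2's Wald test (1.65, adjusted p = 0.036), and in edgeR without Cre-only replicate 3, the 1 Cre-only sample in the range of the c-k/o cells, where the difference was 2.72 (adjusted p = 0.00698). Ltb was at 13.2, 9.28 and 10 against 15.1, 28.5 and 9.36 CPM (log2 difference 0.69 ± 0.299, adjusted p = 0.282). Its difference was 0.16 without c-k/o replicate 2, the sample with the highest macrophage marker sum, and 1.00 (adjusted p = 0.0351) without replicate 3. The part of macrophages in the Ltb difference was not tested. Ccl3 and Ccl4 did not pass. For Ccl3 the log2 difference was -0.06 ± 0.251 (approximate 95% interval -0.64 to 0.52) and for Ccl4 -0.03 ± 0.294 (-0.71 to 0.65). Without c-k/o replicate 1 they were -0.40 (adjusted p = 0.445) and -0.45 (adjusted p = 0.404), and with 1 factor of unwanted variation in edgeR -0.38 (adjusted p = 0.208) and -0.46 (adjusted p = 0.0525).

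Il6 had 28 counts over the 3-h c-k/o samples and 4 over the 3-h Cre-only samples. After scaling for library size the ratio was 7.94, with a 95% exact interval of 2.78 to 31.2 that covers counting error only. With no filter on low counts the log2 difference was 2.88 ± 0.643 (adjusted p = 0.0258), and the change of c-k/o cells on activation was 2.36 (adjusted p = 0.00394). Each c-k/o sample, at 0.708, 0.328 and 0.707 CPM, lay above each Cre-only sample, and these levels stayed below 1 CPM.

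**Figure D5:**
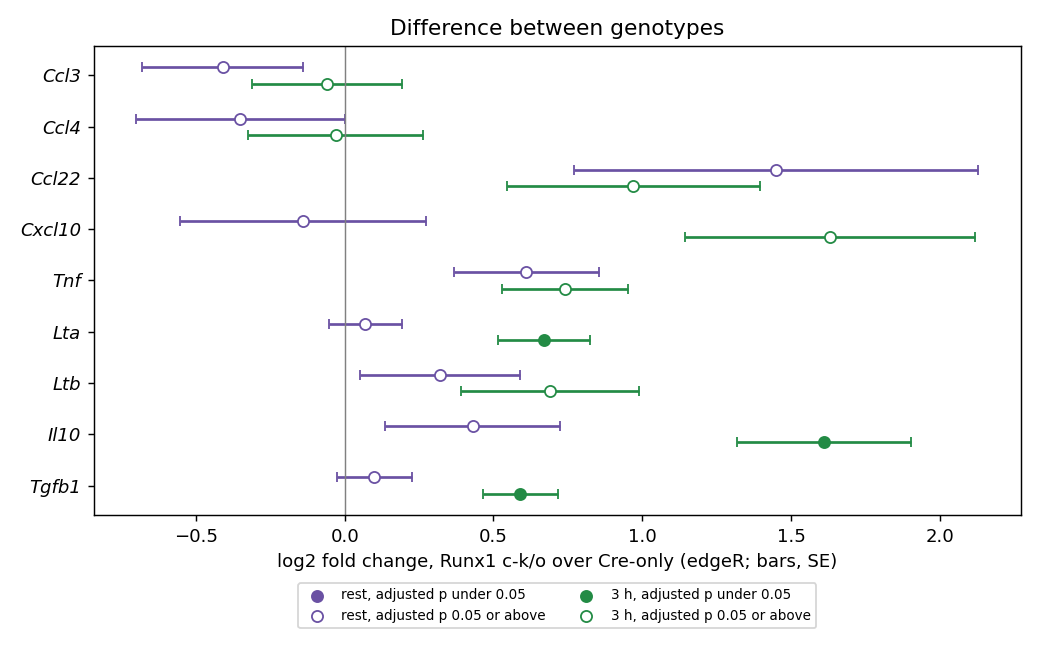
Log2 fold change of Runx1 c-k/o over Cre-only cells for the 9 tested members, with SE bars, at rest (purple) and at 3 h (green). Filled points passed an adjusted p of 0.05: none at rest, and Il10 (1.61), Lta (0.67) and Tgfb1 (0.59) at 3 h.

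The last comparison tested whether the response to activation itself differed between genotypes, as the interaction of genotype and time. None of the 9 members passed edgeR's test, against 0.0813% of all tested genes, and the DESeq2 Wald test called 0. At an unadjusted p under 0.05 there were 4: Cxcl10 (log2 difference of changes 1.77 ± 0.641, adjusted p = 0.742), Il10 (1.17 ± 0.415, adjusted p = 0.738), Lta (0.60 ± 0.199, adjusted p = 0.664) and Tgfb1 (0.49 ± 0.178, adjusted p = 0.749). Over all tested genes, 686 of 13538 reached that unadjusted threshold. Tgfb1 was called with 1 factor of unwanted variation (0.47, adjusted p = 0.0162). The calls made at 3 h and not at rest, and those of Cxcl10 and Il10 in 1 genotype each, were thus not shown to differ by this test. For Tnf the estimate was 0.14 ± 0.325 and for Ccl4 0.33 ± 0.458.

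Of the surrounding genes, some differed between genotypes. Over all tested genes, edgeR called 1.49% at rest and 2.77% at 3 h, and 1496 and 2194 of 13538 had an unadjusted p under 0.05. DESeq2 called 357 and 691 of 22850 genes with a p-value, a total that includes low-count genes outside edgeR's 13538. Of 11 tested genes for processing or release of the members, edgeR called 0 at either time, with 2 at rest and 3 at 3 h at an unadjusted p under 0.05 and 1 called at each time by DESeq2. Il10rb was called at rest (means of 44.4 and 57.4 CPM, log2 difference 0.37 ± 0.0787, adjusted p = 0.0397). Of the 27 other chemokine and cytokine genes, Il18, an activator of interferon γ production, was higher in c-k/o cells at rest (means of 9.92 and 18.5 CPM, log2 difference 0.90 ± 0.179, adjusted p = 0.0282) and at 3 h (0.293 and 1.12 CPM, 1.89 ± 0.371, adjusted p = 0.0175). Tgfb3, a paralogue of Tgfb1, was lower at rest (10.6 and 6.13 CPM, log2 difference -0.78 ± 0.151, adjusted p = 0.0236) and at 3 h (13.9 and 8.08 CPM, -0.79 ± 0.147, adjusted p = 0.0137). At 3 h, then, Tgfb1 was higher and Tgfb3 lower in the same cells. Of the 25 genes linked to IL-10-producing B cells, edgeR called 1 at 3 h and DESeq2 called 3. The gene called by edgeR, Bhlhe40, a known repressor of Il10 in T cells, was lower in c-k/o cells (means of 205 and 152 CPM, log2 difference -0.43 ± 0.0906, adjusted p = 0.0255). A link between Bhlhe40 and the Il10 level was not tested. At rest edgeR called 0 of the 25, with 5 at an unadjusted p under 0.05 and 3 called by DESeq2.

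For the 3 members called at 3 h, the tested genes most like them by Pearson's r of log2 CPM over the 12 samples, which share the 4 groups, were as follows. For Il10 they were Isg15, an interferon-induced ubiquitin-like modifier (r = 0.929), Gypc (0.921) and Mir212 (0.899). Isg15 had means of 5.11, 4.62, 8.52 and 15.0 CPM in resting and 3-h Cre-only and resting and 3-h c-k/o cells. For Tgfb1 they were Chchd2 (0.966), 0610010O12Rik (0.965) and BC017612 (0.961), and for Lta 1700012B15Rik (0.996), Ppp1r15a (0.995) and Ublcp1 (0.994).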

How the data were processed

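RNA was sequenced from resting and 3-h activated splenic B cells in 4 groups of 3 samples. The authors prepared libraries with a stranded poly(A) kit, processed the reads with CASAVA 1.8.4, aligned them to mm9 (NCBIM37) with TopHat2 2.0.11 and Ensembl annotation version 66, and deposited raw read counts per gene from featureCounts, without normalization. The strand setting and the handling of reads with several alignments are not given in the sources used here. The deposited count table held 0 rows of the ERCC spike-in RNA. Levels and changes are therefore relative to the other RNA of each sample and are not amounts per cell. Gene names, positions and exon lengths came from GENCODE vM1 (Ensembl 65, the same build).

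The members and gene lists were chosen with earlier results of these data known. Genes were kept by filterByExpr (minimum of 10 counts) of edgeR 4.0.16 in R 4.3.3, which left 13538. After TMM normalization, robust quasi-likelihood fits of all 12 samples as 4 groups gave log2 fold changes, SE and p-values adjusted by Benjamini-Hochberg across the tested genes, at a threshold of 0.05. Approximate 95% intervals are the SE times the t quantile on 8 residual degrees of freedom. Per sample, 14442251 to 23641552 counts set the precision; floors of 3 counts cover counting error only. An exact permutation test of 3 against 3 cannot give a p under 0.1. Of each list the genes named are up to 4 called with the smallest p per direction and comparison, chosen from these for the text, plus receptors of a described member; the 3 genes of highest Pearson correlation are named for each member called at 3 h.

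In Cre-only cells, resting and 3-h samples that share a number deviated together (r = 0.275, 0.176 and 0.144 over 13538 genes), a pairing inferred from the data, so values paired by replicate are given where they change a call. Alternatives were DESeq2 1.42.0 size factors and its Wald test, no filter, at least 10 counts in every sample, 1 RUVs factor in edgeR and DESeq2 (the study used RUV-seq with DESeq2, its settings not given), replicate blocks, only the groups compared, and each sample left out. The models were tested on simulated data. Python 3.11.15 with SciPy 1.17.1 made the tables and matplotlib 3.10.9 the figures.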

Additional observations from a re-analysis of the deposited data

Results flagged for a closer look

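Il10 was singled out because its samples lay on opposite sides of rest in the 2 genotypes: each 3-h Cre-only sample was below the resting sample of the same number (2.63, 3.46 and 4.33 against 3.23, 4.44 and 5.33 CPM), a pairing inferred from the data, and each 3-h c-k/o sample was above all resting c-k/o samples (9.53 to 11.4 against 3.81 to 8.79 CPM). The Cre-only change did not pass (log2 fold change -0.32, adjusted p = 0.348 by edgeR, and 0.206 with samples paired by number), and the Cre-only groups overlap. The difference itself was tested as the interaction, which was 1.17 ± 0.415 on the log2 scale and did not pass edgeR's quasi-likelihood test after adjustment (adjusted p = 0.738).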

How the results depend on the processing

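Of 691 recomputed values of single members, 617 kept their direction and their side of the threshold, 34 lost and 12 gained a call and 28 changed sign. With 1 RUVs factor in edgeR and in DESeq2, activation gave -0.40 and -0.52 for Ccl3 and -0.09 and -0.20 for Tgfb1 in Cre-only cells and -0.14 and -0.21 for Ccl3 in c-k/o cells (log2 fold changes), and Tgfb1 at rest gave -0.01 and -0.02; the cause was not tested. Ccl4 at 3 h changed sign near 0 with DESeq2 size factors (0.02), at least 10 counts in every sample (0.01) and the Wald test (0.02). Leaving out 1 sample gave, over each result's set, -0.08 to 0.28 for Cxcl10 on activation of c-k/o cells (below 0 at -0.08, -0.06 and -0.01), -0.13 to 1.91 for Ccl22, -0.29 to 0.01 for Cxcl10, -0.03 to 0.18 for Lta and -0.05 to 0.17 for Tgfb1 at rest, and -0.40 to 0.17 for Ccl3 (above 0 at 0.01 and 0.17) and -0.45 to 0.15 for Ccl4 (above 0 at 0.11 and 0.15) at 3 h. The interaction ranged from -0.07 (without 3-h c-k/o replicate 1) to 0.72 for Ccl4, from -0.93 to 1.11 (without resting c-k/o replicate 2) for Ccl22, from -0.09 (without resting c-k/o replicate 1) to 0.49 for Tnf and from -0.16 (without 3-h c-k/o replicate 2) to 0.68 for Ltb.

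On activation of Cre-only cells, 8 members were called, and 4 with at least 10 counts in every sample (where fewer genes are tested), 5 with RUVs in edgeR and 3 with RUVs in DESeq2; in c-k/o cells 8 fell to 5 with RUVs in DESeq2. At rest 202 genes and 0 members were called, against 357 genes with the Wald test and 492 and 568 genes and 1 member each with RUVs in edgeR and DESeq2. At 3 h 375 genes and 3 members were called, against 691 genes and 5 members with the Wald test, 867 genes with RUVs in edgeR, 1019 genes and 5 members with RUVs in DESeq2, 158 genes with only the groups compared and 1 member with the replicate block. The interaction called 11 genes, and 75, 156 and 292 in those 3 fits, with 1 member in each RUVs fit, and 4 genes with the replicate block within genotype. Leaving out 1 sample gave 9628 to 9697 genes and 7 to 8 members on activation of Cre-only cells, 9472 to 10203 and 8 to 9 in c-k/o cells, 81 to 140 and 0 at rest, 180 to 617 and 0 to 4 at 3 h, and 4 to 31 and 0 for the interaction. Il6 is counted where the filter kept it, and in the fits without 1 sample it passed only through the 3-h c-k/o samples, where it was high.

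Same-numbered c-k/o samples did not deviate together between rest and 3 h (r = -0.254, -0.264 and 0.254), nor did those of different genotype (r = -0.0665 to 0.068), so the block there pairs samples by number alone (the highest c-k/o correlation, 0.477, joined resting replicate 2 and 3-h replicate 1, the samples that stood apart); beside the loss of Lta (adjusted p = 0.080) and Tgfb1 (0.0534) at 3 h and, within Cre-only cells, of Ccl3, it changed no other call of a member. Depth limits Il6, Cxcl10 and resting Ccl22, each under 30 counts in most samples, where 1 library can decide a call.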
